A study of Homo sapiens with 9 samples.

Results

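Gene expression with shUGDH-1, the first of the short hairpin RNAs against UGDH in this series, was compared with a non-targeting hairpin, shNT, over all genes. The comparison takes 6 of the 9 libraries, 3 with each hairpin, and the 3 libraries of the second UGDH hairpin, shUGDH-2, serve to show which changes set shUGDH-1 apart. All 9 came from MDA-MB-231, a human triple-negative breast cancer line of mesenchymal type, transduced with lentivirus from the pGIPZ vector, so the controls also carry a vector and a hairpin. mRNA-seq libraries were sequenced as read pairs and deposited as counts per gene. The 6 libraries held 9249738 to 13328002 counts, the fewest in replicate 3 of shUGDH-1, and between 14899 and 15278 genes had a count. The labels call the replicates biological and do not say whether each was transduced separately, so the p-values cover only how these libraries vary, which may be technical. Of the 7 markers of MDA-MB-231 that should be present, all had counts, and their summed level was 7558 to 7681 CPM (counts scaled to the size of the library) with shNT and 7951 to 8032 CPM with shUGDH-1. Of 7 markers that should be low or absent, 6 had counts, and they summed to 157.7 to 167.3 CPM with shNT and 175.5 to 180.6 CPM with shUGDH-1. CDH1 and PGR were among the 4 that did not pass the filter on low counts, and 2 of the 3 that did were higher with shUGDH-1, the 3 at log2 values of 0.11 to 0.36. That count was 0 with DESeq2, an alternative to the main fit, and below 2 in 6 of the fits that left out a library. Markers of other cells were scarce: 8 of 12 leukocyte markers had a count, with CD3E, CD2 and FCGR3A among those at 0, and the list summed to 96.5 to 105.9 CPM with shNT and 89.2 to 97.0 CPM with shUGDH-1. Fibroblast markers summed to 28.2 to 31.6 CPM with shNT and 30.5 to 32.6 CPM with shUGDH-1, with DCN and LUM at 0.

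UGDH encodes the dehydrogenase of the cytosol that turns UDP-glucose into UDP-glucuronate. UDP-glucuronate is a substrate of hyaluronan synthases at the cell surface, of the polymerases that build heparan and chondroitin sulfate chains in the Golgi apparatus, and of the enzymes that conjugate small molecules for excretion. A hairpin expressed from a lentiviral vector is cut by the cell's microRNA machinery into a short guide strand, which directs the cleavage of a matching mRNA and can also lower mRNAs that match only its first bases, the seed.

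The guide strands named in the labels are shown because they are the only designed difference between the groups. Capitals mark bases 2 to 8, the seed, counted from the 5′ end of the sequence as the labels give it. The sources used here do not give the ends of the guide as processed in the cells, so the true seed can be shifted.
shUGDH-1: tTGCATCAaatatgcgacg
shUGDH-2: aTATACTTcagatctgctg
shNT: aTCTCGCTtgggcgagagtaag
The shUGDH-1 sequence is antisense to the UGDH mRNA. Its target lies at chr4:39510687-39510705 on the minus strand of GRCh38, in exon 4 and the coding sequence of transcript ENST00000316423.10, and 5 of 9 UGDH transcripts in GENCODE hold it. The target with 11 bases on each side, from that transcript, reads as follows, with the paired bases in capitals.
UGDH target of shUGDH-1: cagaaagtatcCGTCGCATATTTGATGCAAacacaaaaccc
In the libraries, UGDH stood at 53.01, 55.6 and 50.3 CPM in the shNT libraries, 7.62, 7.3 and 8.03 in those of shUGDH-1 and 8.09, 6.62 and 6.79 in those of shUGDH-2. Levels with either UGDH hairpin lay below every shNT library, and the 2 hairpins overlapped each other. The log2 fold change of shUGDH-1 against shNT was -2.80 (SE 0.08, adjusted p = 3.9e-36) by the quasi-likelihood test of edgeR, adjusted by Benjamini and Hochberg's method over all genes, the test behind every adjusted p given here.

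Across 12546 genes tested, 2605 passed at an adjusted p under 0.05, or 20.8%, with 1318 higher (10.5%) and 1287 lower (10.3%). Folds were small: 140 of the higher genes and 65 of the lower ones changed by 1.5-fold or more. The median log2 fold change of all genes tested was 0.00. Against a minimum fold of 1.2, tested with edgeR's glmTreat, 149 genes were higher and 35 lower. A gene was counted as apart from both other groups when shUGDH-1 differed in the same direction from shNT and from shUGDH-2, taking the larger of the 2 p-values and adjusting over all genes. By that test 627 genes, or 5%, were set apart, 332 higher (2.65%) and 295 lower (2.35%). The tests against shNT of both hairpins share the shNT libraries. Of all genes, shUGDH-2 had 8.04% higher and 6.81% lower than shNT (14.9% in all), and shUGDH-1 had 5.51% higher and 5.36% lower than shUGDH-2 (10.9% in all). Values of shUGDH-2 against shNT are given beside those of shUGDH-1 for reading only. For the counts of each list and family below, the background is 10.5% higher and 10.3% lower. For members apart from both groups, it is 2.65% higher and 2.35% lower.

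**Figure D1:**
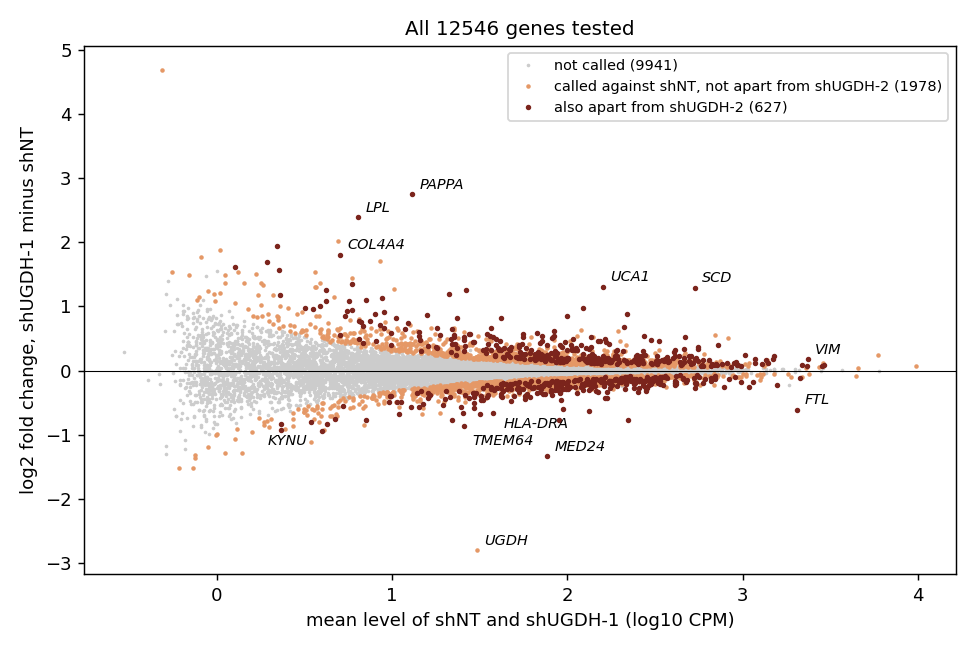
Log2 fold change of shUGDH-1 against shNT (y axis) by the mean level of both groups in log10 CPM (x axis) for the 12546 genes tested. Grey points are the 9941 genes that did not pass, orange the 1978 that passed and were not apart from shUGDH-2, and dark red the 627 that were apart from both other groups. UGDH is the lowest point and is orange, since both hairpins lowered it. MED24 is the lowest dark red one.

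Among genes set apart by this hairpin, the strongest decrease was in MED24, a subunit of the Mediator complex that links transcription factors to RNA polymerase II. MED24 stood at 107, 110.0 and 110.5 CPM in the shNT libraries, 45.8, 39.8 and 44.8 in those of shUGDH-1 and 105, 110.2 and 113 in those of shUGDH-2. All 3 shUGDH-1 libraries lay far below the other 6, and the 2 other groups overlapped. The log2 fold change against shNT was -1.33 (SE 0.05, adjusted p = 4.8e-32), and that of shUGDH-2 against shNT was 0.01 (SE 0.04, adjusted p = 0.95). Of the 33 Mediator genes tested, 5 were lower (3 with DESeq2) and 2 higher, against 10.3% and 10.5% of all genes. The lower ones besides MED24 included MED14, the backbone subunit (-0.15, SE 0.03, adjusted p = 1.2e-05), and CCNC, the cyclin of the kinase module (-0.26, SE 0.06, adjusted p = 0.0012). The lower ones numbered 3 without replicate 1 of shNT or without replicate 2 or 3 of shUGDH-1. The higher ones, MED15 and MED25 (0.12 and 0.12), numbered 0 without replicate 1 or 3 of shNT or replicate 3 of shUGDH-1, and 1 without replicate 1 or 2 of shUGDH-1. The nearest tested neighbours of MED24 by RefSeq order, PSMD3, CSF3, THRA and NR1D1, did not pass, with log2 fold changes of -0.04, -0.31, 0.11 and -0.14. No transcript of MED24 in GENCODE held more than 7 bases in a row of the guide's complement, and its 3′ UTR held no match to the seed.

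TMEM64, a membrane protein gene, was also lower than in both other groups, at 34.8, 34.3 and 30.1 CPM in the shNT libraries, 19.6, 17.5 and 17.7 in those of shUGDH-1 and 31.00, 32.7 and 30.3 in those of shUGDH-2. The shUGDH-1 libraries did not overlap with any other, as the rule that named this gene required. The log2 fold change against shNT was -0.86 (SE 0.08, adjusted p = 6.4e-14). Its 3′ UTR held 1 match to bases 2 to 8 of the guide. Among the 15 lower genes named by the rule for genes apart from both groups, 3 held such a match in the 3′ UTR: TMEM64, ARRDC4 and FNIP2. Over the 11196 genes with an annotated 3′ UTR, 11.3% held the match, and 14.3% of those were lower against 10.2% of the genes without it. Genes with the match had longer 3′ UTRs, with a median of 3264 bases against 1240. The seed of shUGDH-2, which neither group of this contrast carried, gave the same kind of split in the same contrast, with 15.0% lower among genes that held it and 9.84% among those that did not. For shUGDH-1 against shUGDH-2, the median log2 fold change was -0.012 with the shUGDH-1 seed match and 0.0034 without it, and 0.0040 with the shUGDH-2 seed match and 0.0011 without it. The part of the seed in these differences was not tested. Longest runs of the guide's complement reached 19 bases in UGDH and 14 in the next gene, MED13L, whose log2 fold change was -0.03 (adjusted p = 0.60).

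UCA1, a long noncoding RNA known from bladder and breast cancer cells, rose to 226, 227 and 229 CPM with shUGDH-1, from 89.4, 94.1 and 91.5 CPM with shNT, and stood at 75.6, 76.3 and 79.7 CPM with shUGDH-2. The 3 groups did not overlap, and shUGDH-2 lay below shNT. Its log2 fold change was 1.31 (SE 0.03, adjusted p = 3.9e-39), and the next tested gene in the RefSeq order, TPM4, had -0.06 (adjusted p = 0.0091). FTL, the light chain of the iron store ferritin, was at 2393, 2487 and 2520.2 CPM in the shNT libraries, 1585, 1629.9 and 1636 in those of shUGDH-1 and 2149.9, 2100.3 and 2133 in those of shUGDH-2. All 3 groups were separate, with shUGDH-1 lowest, and the log2 fold change came to -0.61 (SE 0.02, adjusted p = 8e-38) against -0.21 with shUGDH-2. FTL has processed pseudogenes, so its count is uncertain where reads are shared. TFRC, the receptor that takes up transferrin iron, was also lower, at -0.21 (SE 0.02, adjusted p = 4.6e-11), and it was apart from both groups (adjusted p = 2e-09). The ferritin heavy chain FTH1 had a log2 fold change of -0.22 (SE 0.08, adjusted p = 0.12) and did not pass. FTH1 also has many pseudogenes. TFRC, FTH1 and NFYC, which is given further on, were picked after their values had been seen.

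**Figure D2:**
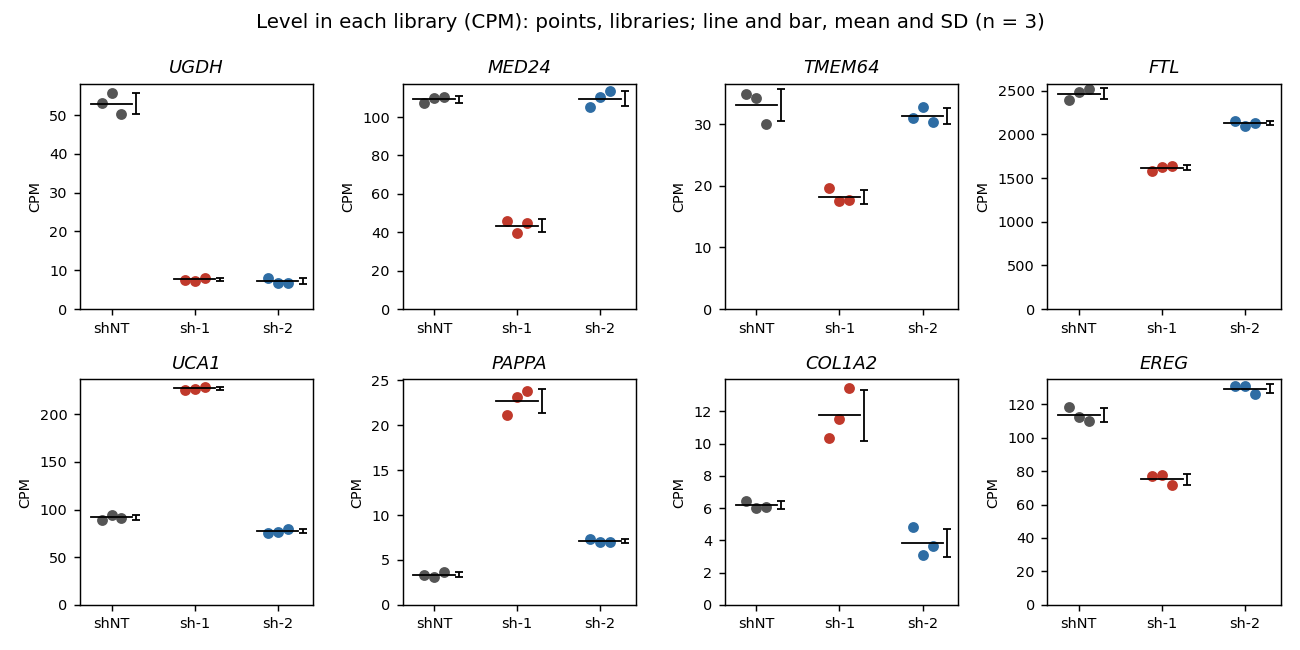
CPM (y axis, from 0) of 8 genes in each of the 9 libraries, with shUGDH-1 and shUGDH-2 shortened to sh-1 and sh-2. Points are libraries, horizontal lines are means and bars beside them are SD (n = 3). UGDH is low with both UGDH hairpins, while MED24, TMEM64, FTL and EREG are lowest and UCA1, PAPPA and COL1A2 highest with shUGDH-1.

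Other genes that rose with shUGDH-1 and were apart from both groups included the amyloid precursor adaptor APBA2 and the mucin MUC4. MUC4 was at 2.07, 2.3 and 3.32 CPM in the shNT libraries, 4.47, 5.34 and 5.64 in those of shUGDH-1 and 1.68, 2.39 and 2.34 in those of shUGDH-2. It did not overlap with either group, and its log2 fold change was 1.00 (SE 0.20, adjusted p = 7.3e-05). APBA2 moved by 1.25 (SE 0.19, adjusted p = 4.5e-07) with shUGDH-1 and by -0.79 with shUGDH-2. The chemokine receptor CXCR4 rose from 7.61 ± 0.768 to 13.5 ± 1.07 CPM (SD, n = 3), at 0.82 (SE 0.12, adjusted p = 1.7e-07), and stood at 8.54 CPM with shUGDH-2. LLGL2, a polarity protein of epithelial cells, and the patched-related DISP2 rose by log2 values of 0.93 and 0.66. PAPPA, LPL and COL4A4 also rose with shUGDH-2, by 1.07, 1.22 and 0.60, but by more with shUGDH-1, at 2.74, 2.39 and 1.80 (adjusted p apart from both 7.8e-20, 2.3e-09 and 1.6e-07).

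Of the lists examined, MHC class II presentation had the largest share of members lower with shUGDH-1. These genes encode the surface heterodimers that present peptides from endocytosed proteins to CD4+ T cells, the invariant chain CD74, the peptide-loading factors HLA-DM and HLA-DO, and the transactivator CIITA with its RFX partners. Of 16 members tested, 9 were lower and none higher with shUGDH-1, 56.2% against the background of 10.3%, and the median log2 fold change was -0.18 against 0.00 over all genes. In the shUGDH-2 comparison 9 members were higher and none lower, with a median of 0.24, beside 8.04% higher among all genes. The test apart from both groups called 7 members lower, against 2.35% of all genes. Leukocytes also express these genes. The 12 leukocyte markers, 8 of them with a count, summed to 96.5 to 105.9 CPM with shNT, 89.2 to 97.0 with shUGDH-1 and 90.9 to 98.4 with shUGDH-2. CD3E, CD2 and FCGR3A had no count. Of the 3 leukocyte markers tested, the myeloid marker CD68 fell, at -0.16 (adjusted p = 0.0038) and -0.12 with shUGDH-2, and CD14 had 0.62 (adjusted p = 0.075). Their part in the class II result was not tested.

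HLA-DRA, the DR alpha chain, was at 46.2, 45.8 and 45.1 CPM in the shNT libraries, 30.1, 26.1 and 31.04 in those of shUGDH-1 and 57.9, 55.8 and 57.5 in those of shUGDH-2. The groups stood in 3 separate ranges, shUGDH-1 lowest and shUGDH-2 highest. The log2 fold change of shUGDH-1 against shNT was -0.66 (SE 0.06, adjusted p = 5.4e-13) and that of shUGDH-2 was 0.32 (SE 0.05, adjusted p = 1.3e-05). The DR beta chain HLA-DRB1 moved by -0.66 (SE 0.08, adjusted p = 2.4e-10), and HLA-DPA1 and HLA-DPB1, the DP chains, by -0.77 (SE 0.08, adjusted p = 7.7e-12) and -0.68 (SE 0.12, adjusted p = 6.4e-06). HLA-DMB, the beta chain of the loading factor, moved by -0.77 (SE 0.14, adjusted p = 1.9e-05). Its alpha chain HLA-DMA was at -0.09 (SE 0.09, adjusted p = 0.51) and did not pass. CD74 moved by a small but clear amount, from 435 ± 10.9 to 388 ± 1.06 CPM (SD, n = 3), or -0.17 (SE 0.02, adjusted p = 3e-07), and rose with shUGDH-2 to 522 CPM. HLA-DRB5 fell, at -0.76 (SE 0.18, adjusted p = 0.0012). It is a near copy of HLA-DRB1, which the counting may split, and its adjusted p apart from both groups rose to 0.054 on leaving out replicate 3 of shNT, and to 0.099 or 0.053 on leaving out replicate 1 or 2 of shUGDH-1.

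Of the regulators of class II genes, 1 of the 7 given here, NFYC, passed. CIITA was at 19.4, 21.6 and 22.4 CPM in the shNT libraries, 17.9, 19.3 and 20.1 in those of shUGDH-1 and 25.4, 25.7 and 27.3 in those of shUGDH-2. Its shUGDH-1 and shNT libraries overlapped, with a log2 fold change of -0.15 (SE 0.08, adjusted p = 0.21), and shUGDH-2 lay above both, at 0.31 (SE 0.08, adjusted p = 0.0028). RFX5, RFXANK and RFXAP, which form the RFX factor, had values of -0.09, -0.03 and 0.18 and did not pass. Of the NF-Y factor, which binds the CCAAT box of these promoters, NFYC was lower, at -0.40 (SE 0.06, adjusted p = 3.3e-07), with 0.08 for shUGDH-2, and NFYA and NFYB were at -0.03 and -0.03 and did not pass. The calls of 2 further members were weak. HLA-DOA had -0.98 (SE 0.37, adjusted p = 0.046) at a low level, and its adjusted p rose to 0.11 or 0.14 on leaving out replicate 2 or 3 of shNT, and to 0.10 or 0.19 on leaving out replicate 1 or 3 of shUGDH-1. LGMN, a lysosomal protease, had -0.16 (SE 0.06, adjusted p = 0.044), and its adjusted p was 0.27 without replicate 3 of shNT and 0.08, 0.09 and 0.14 without replicates 1, 2 and 3 of shUGDH-1. Of 24 MHC class I genes tested, 1 was higher and 2 lower, with a median of 0.02. TAP2, which moves peptides into the endoplasmic reticulum, was among the lower ones, at -0.08. None of the list was lower without replicate 1 of shNT or replicate 2 of shUGDH-1, and 1 was lower without replicate 3 of shNT, replicate 1 of shUGDH-1 or any library of shUGDH-2.

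Promoter sequence is shown for the 3 class II genes in which both motif letters named next were found, because the class II list is the one with the largest share of lower members; of the 3, HLA-DMA did not pass. The windows of 85 bases come from the RefSeq promoter table of GRCh38.p14, on the minus strand of chromosome 6. Capitals mark GATGATG and every ATTGG or its complement CCAAT, the letters of a CCAAT box. The marked stretches differ in number, spacing and orientation among the 3 windows, and none is taken here as a bound site. The motifs were chosen after the sequences had been seen.
HLA-DRB1, chr6:32589846-32589930: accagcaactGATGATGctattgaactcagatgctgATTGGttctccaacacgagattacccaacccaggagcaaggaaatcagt
HLA-DMA, chr6:32953129-32953213: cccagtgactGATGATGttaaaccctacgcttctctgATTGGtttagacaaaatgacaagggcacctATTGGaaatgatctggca
HLA-DMB, chr6:32941035-32941119: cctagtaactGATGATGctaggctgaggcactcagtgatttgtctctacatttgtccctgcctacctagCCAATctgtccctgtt
Both strands of all 35116 promoters of 300 bases in that table were searched. GATGATG was in 2.84% of them, or 997, and in 3 of the 8 class II genes found there. ATTGG was in 34.6% of them and in 7 of the 8. The percentages count promoters, whereas a class II gene counted if any of its promoters held the motif, so the units differ. HLA-DMA holds both motifs and did not pass, while HLA-DRB1 and HLA-DMB passed.

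**Figure D3:**
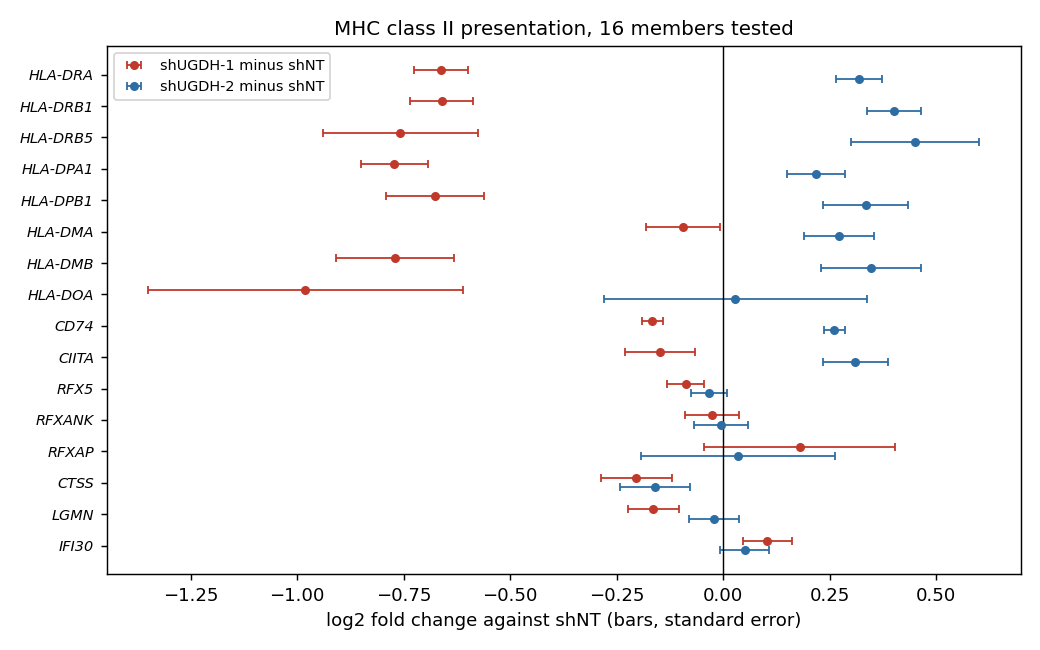
Log2 fold change against shNT (x axis) with standard error bars for the 16 MHC class II members tested, red for shUGDH-1 and blue for shUGDH-2. HLA-DRA, HLA-DRB1, HLA-DPA1, HLA-DPB1 and HLA-DMB lie left of 0 in red, at -0.66 to -0.77, and right of 0 in blue. Both comparisons use the same shNT libraries.

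Genes around the product of UGDH had a median near that of all genes. Of 30 genes of UDP-sugar synthesis and transport tested, 2 were higher (6.67%) and 6 lower (20%), UGDH included, with a median of -0.01. Among all genes, 10.5% were higher and 10.3% lower. GFPT2, which makes the hexosamine precursor of UDP-N-acetylglucosamine, was at 57.9, 55.8 and 55.8 CPM in the shNT libraries, 43.4, 43.6 and 41.5 in those of shUGDH-1 and 60.9, 55.7 and 52.8 in those of shUGDH-2. Its shUGDH-1 libraries lay below all others, at -0.40 (SE 0.06, adjusted p = 8e-08), against 0.00 with shUGDH-2. HK2, the hexokinase that feeds this pathway and glycolysis, had -0.21 (SE 0.04, adjusted p = 0.0003). The count of lower genes in this list was 3 without replicate 2 of shUGDH-1. UXS1, which turns UDP-glucuronate into UDP-xylose, had 0.00 (SE 0.03, adjusted p = 1) and did not pass, nor did UGP2, which makes UDP-glucose, at -0.06 (SE 0.05, adjusted p = 0.42).

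Hyaluronan genes tested numbered 9, of which 2 rose (22.2%, against 10.5% of all genes) and none fell. Those were the hyaluronan depolymerases of the CEMIP family, listed by older symbols as TMEM2, at 0.40 (SE 0.06, adjusted p = 1.1e-06), and KIAA1199, at 0.25 (SE 0.03, adjusted p = 4.9e-09). The synthase HAS2 stood at 0.845, 1.7 and 1.45 CPM in the shNT libraries, 1.31, 2.48 and 1.95 in those of shUGDH-1 and 1.43, 2.16 and 1.86 in those of shUGDH-2. Its groups overlapped, and it had 0.54 (SE 0.30, adjusted p = 0.21), while HAS3 had 0.16 (SE 0.31, adjusted p = 0.79). The main hyaluronan receptor CD44 had -0.03 (SE 0.02, adjusted p = 0.26). Of 33 genes for heparan and chondroitin sulfate synthesis, 6 rose (18.2%) and 2 fell (6.06%), against 10.5% and 10.3% of all genes. EXT1, a heparan sulfate polymerase, XYLT2, which starts the linkage region, and the chondroitin polymerase partner CHPF were among those higher, with log2 values of 0.18, 0.26 and 0.17. HS2ST1 and FAM20B, the 2 lower ones, had -0.14 and -0.16. Neither passed without replicate 1 of shNT or replicate 2 of shUGDH-1.

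Core proteins that carry these chains moved more. Of 15 proteoglycan core genes tested, 7 rose (46.7%) and 2 fell (13.3%), against 10.5% and 10.3% of all genes. Of the higher ones, 5 were apart from both groups, as were 2.65% of all genes. In the shUGDH-2 comparison 4 of the 15 were higher and 3 lower. CSPG4, a transmembrane chondroitin sulfate proteoglycan, was at 29.7, 34.6 and 33.1 CPM in the shNT libraries, 44.7, 46.5 and 46.1 in those of shUGDH-1 and 28.1, 26.03 and 29.3 in those of shUGDH-2. The shUGDH-1 libraries were above all others, and the log2 fold change came to 0.50 (SE 0.06, adjusted p = 5.1e-09) against -0.22 for shUGDH-2. The syndecans SDC2 and SDC1, which carry heparan sulfate at the membrane, rose by log2 values of 0.56 and 0.19, and by 0.14 and 0.04 with shUGDH-2. SDC4 showed 0.13 against 0.31 in the 2 hairpins and was not apart from both. SRGN, the core of intracellular granules, was lower, at -0.19 (SE 0.05, adjusted p = 0.0039). The other lower one, NRP1, had -0.07 and did not pass without replicate 2 of shUGDH-1.

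Of 21 collagens tested, 8 rose (38.1%) and 2 fell, and 4 of the higher ones were apart from both groups. In the shUGDH-2 comparison 8 were higher and 2 lower. COL1A2, a chain of type I collagen, was at 6.45, 6.04 and 6.05 CPM in the shNT libraries, 10.3, 11.5 and 13.5 in those of shUGDH-1 and 4.8, 3.08 and 3.64 in those of shUGDH-2. The 3 groups did not overlap, with shUGDH-1 highest and shUGDH-2 lowest, and the log2 fold changes were 0.91 (SE 0.13, adjusted p = 2.4e-07) and -0.70 (SE 0.17, adjusted p = 0.0019). COL8A1 and the transmembrane collagen COL13A1 rose by 0.50 and 0.31, against 0.25 and 0.04 with shUGDH-2, and both were apart (adjusted p 3.6e-06 and 7.1e-10). COL4A2, a basement membrane chain, rose about equally with both hairpins (0.28 against 0.25). COL7A1, the anchoring fibril collagen, was lower, at -0.17 (SE 0.03, adjusted p = 9.9e-05). COL6A1, the other one lower with shUGDH-1, had -0.09. It did not pass without replicate 2 or 3 of shNT or replicate 1 or 2 of shUGDH-1. Among genes for collagen processing, 7 of 20 rose and none fell, among them the prolyl hydroxylases P4HA2 and P4HB (0.24 and 0.12), the crosslinking oxidase LOXL2 (0.24) and the collagen chaperone SERPINH1 (0.13).

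TIMP3, an inhibitor of metalloproteinases that binds to sulfated chains of the matrix, was at 29.3, 31.1 and 32.2 CPM in the shNT libraries, 44.2, 43.6 and 45.4 in those of shUGDH-1 and 17.6, 17.02 and 19.3 in those of shUGDH-2. It rose with shUGDH-1 and fell with shUGDH-2, with no overlap, at 0.52 (SE 0.06, adjusted p = 1.3e-09) and -0.78 (SE 0.07, adjusted p = 1e-12). Other members of the protease list went both ways, 9 higher and 7 lower (4 with DESeq2) of 33. The plasminogen activators split: PLAT rose (0.46 (SE 0.03, adjusted p = 3.8e-17)) and PLAU fell (-0.18 (SE 0.02, adjusted p = 2.1e-12)). The inhibitor TIMP1 and the lysosomal protease CTSL1 were lower, at -0.19 and -0.26. Basement membrane genes likewise went both ways. FN1, fibronectin, rose (0.45 (SE 0.03, adjusted p = 3e-17)), whereas TNC, tenascin C, fell (-0.51 (SE 0.07, adjusted p = 1.5e-07)) together with the laminin chains LAMB3 and LAMC1 (-0.27 and -0.15). Among the genes tested, TNC comes next to PAPPA in the RefSeq order, and the 2 moved in opposite directions. Genes that were not tested may lie between them.

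Of 23 integrin genes tested, 9 were higher (39.1%), 1 was lower and 13 did not pass. Apart from both groups were 5 (2 without replicate 2 of shUGDH-1, 3 with DESeq2). For shUGDH-2, 6 were higher and 2 lower. ITGB4, the beta chain of the laminin receptor of hemidesmosomes, was at 384, 382 and 389 CPM in the shNT libraries, 552, 555 and 545 in those of shUGDH-1 and 408, 412 and 409.9 in those of shUGDH-2. The shUGDH-1 libraries lay well above all others, and the log2 fold change came to 0.52 (SE 0.02, adjusted p = 1.1e-28) against 0.09 with shUGDH-2. Its partner ITGA6 rose by only 0.09 (SE 0.02, adjusted p = 0.00094). FERMT1, an integrin activator of epithelia, rose by 0.27 against 0.01 with shUGDH-2. ITGB1, the common beta chain, was the member lower with shUGDH-1, at -0.09 (SE 0.02, adjusted p = 0.00014).

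Many desmosome, keratin and junction genes rose in this mesenchymal line. Of 17 desmosome and keratin genes tested, 9 rose and none fell, with a median of 0.34, and 5 were apart from both groups. For shUGDH-2, 9 of the 17 were higher and 1 lower, with a median of 0.15. KRT8, a simple epithelial keratin, was at 616, 633 and 625 CPM in the shNT libraries, 833, 806 and 826 in those of shUGDH-1 and 702, 677 and 708 in those of shUGDH-2. The groups formed 3 separate ranges, shNT lowest and shUGDH-1 highest. DSP, the desmosomal linker to keratin, rose by 0.45 (SE 0.04, adjusted p = 7.7e-14), and EVPL, envoplakin, by 0.37 (SE 0.04, adjusted p = 9.5e-11), against 0.23 and 0.02 with shUGDH-2. PPL, PKP3 and KRT7 rose by 0.40, 0.35 and 0.27, with 0.24, 0.27 and 0.21 for shUGDH-2, and were not apart from both. Keratin reads can be shared with processed pseudogenes, so the levels of KRT8 and KRT18 are uncertain to that extent.

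In the list of tight and adherens junctions 14 of 27 rose (51.9%) and 1 fell, and with shUGDH-2 11 rose and 1 fell. CLDN7, a claudin, was at 4.92, 5.95 and 5.71 CPM in the shNT libraries, 9.47, 8.95 and 9.88 in those of shUGDH-1 and 5.9, 5.39 and 5.41 in those of shUGDH-2. Its shUGDH-1 libraries stood clear of both other groups, which overlapped, and the log2 fold change came to 0.77 (SE 0.14, adjusted p = 1.1e-05). SPINT2, an inhibitor of matriptase, moved by 0.36 (SE 0.04, adjusted p = 2.2e-11) against 0.03 with shUGDH-2. The junction genes LSR, F11R and CGN rose by 0.51, 0.56 and 0.66, against 0.28, 0.44 and 0.45, and LSR was apart from both groups. The higher ones also included CDH11, a cadherin of mesenchymal cells, at 0.83 (adjusted p = 1.4e-12). CDH11 was apart from both groups as well (adjusted p = 0.0024). The gene lower with shUGDH-1, CDH4, had -0.09, and did not pass without replicate 1 of shNT or replicate 1 or 2 of shUGDH-1. Of 14 AP-2 and luminal lineage factors tested, 5 rose (35.7%) and 2 fell (14.3%), TFAP2A and EHF, at -0.34 and -0.14.

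Mesenchymal markers did not fall as a group. Of 16 tested, 6 rose and 2 fell, and the summed level of the list was 6056 to 6207 CPM with shNT, 6601 to 6645 with shUGDH-1 and 6199 to 6296 with shUGDH-2. VIM, vimentin, was at 2145, 2241 and 2230.3 CPM in the shNT libraries, 2485, 2526 and 2474 in those of shUGDH-1 and 2127, 2135 and 2172 in those of shUGDH-2. The shUGDH-1 libraries were highest, and the log2 fold change came to 0.18 (SE 0.02, adjusted p = 1.2e-13) against -0.04. FBN1, fibrillin 1, rose by 0.55 (SE 0.05, adjusted p = 1.1e-14). The transition factors ZEB1 and SNAI2, the 2 lower ones, had -0.12 and -0.18. Neither passed without replicate 2 of shNT, and 1 of them passed without replicate 3 of shNT, any library of shUGDH-1 or replicate 1 of shUGDH-2. In bulk libraries a change in the share of cells that express a gene and a change per cell cannot be told apart, which holds for each list here.

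**Figure D4:**
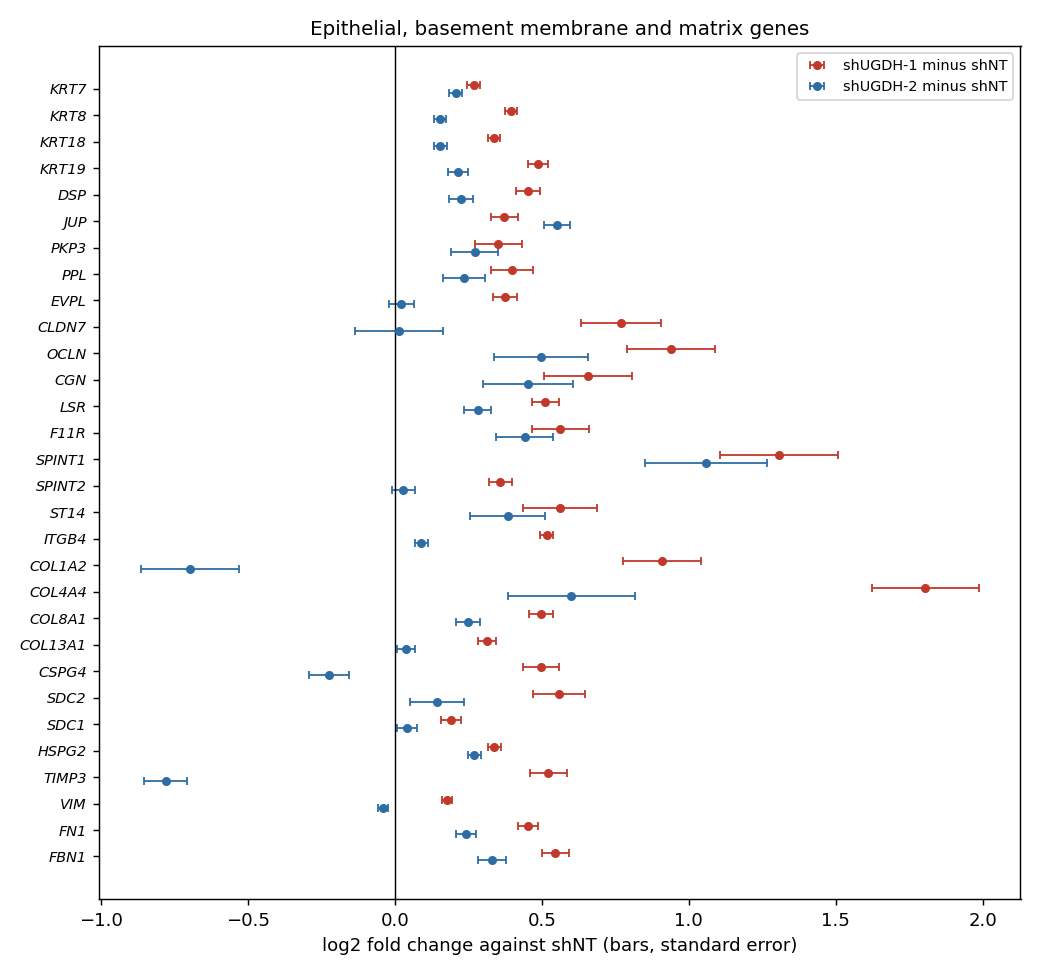
Log2 fold change against shNT (x axis) with standard error bars for 30 epithelial, basement membrane and matrix genes, red for shUGDH-1 and blue for shUGDH-2. The 30 were picked with their values known, and all lie right of 0 with shUGDH-1. Members of the same lists that fell are not shown, among them TNC, LAMB3, COL7A1 and SRGN (-0.51, -0.27, -0.17 and -0.19). COL1A2, CSPG4 and TIMP3 lie left of 0 with shUGDH-2, while JUP lies further right with shUGDH-2.

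**Figure D5:**
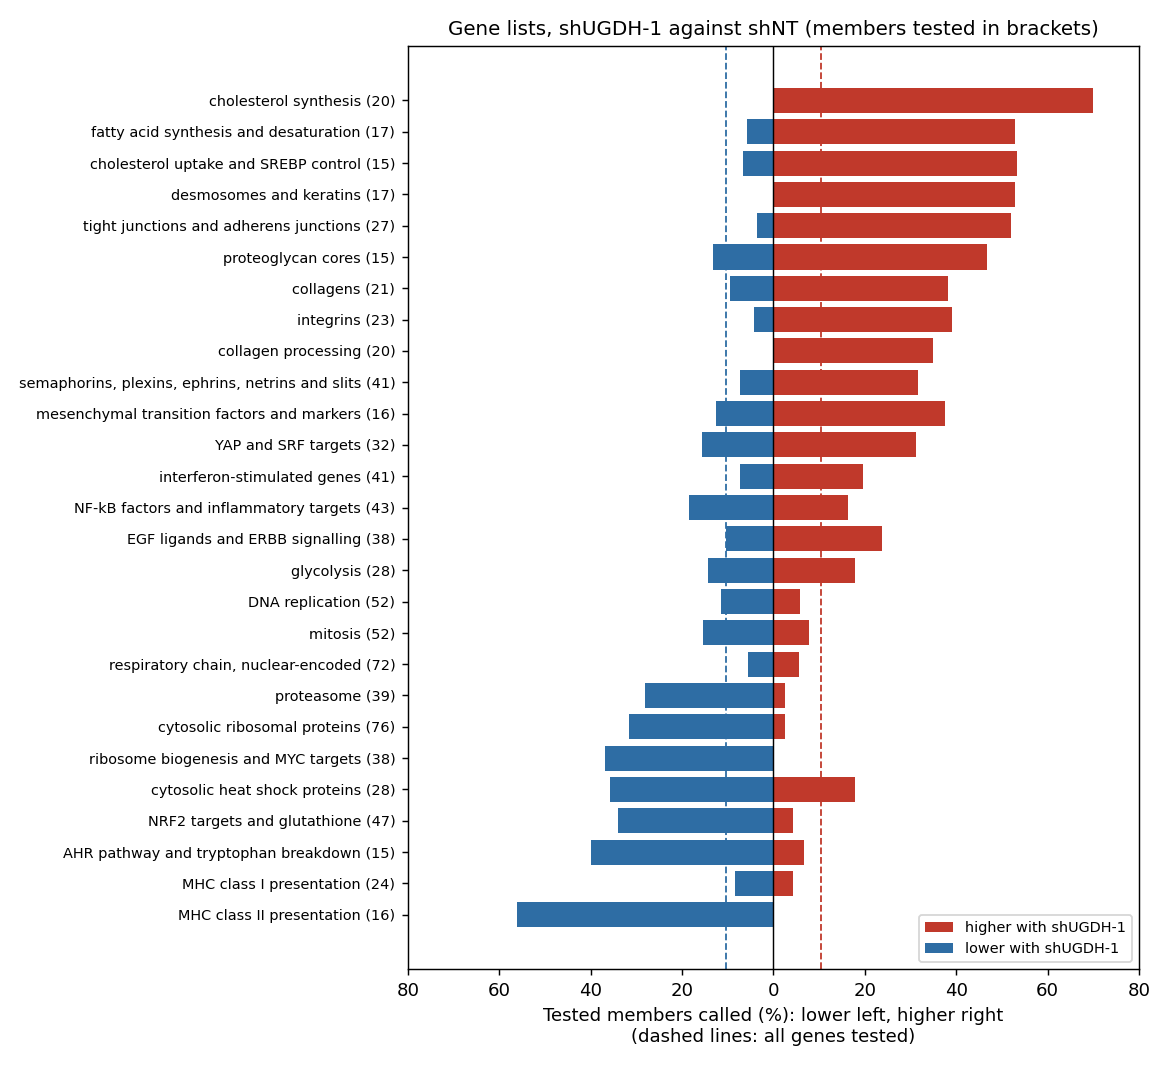
Share of the tested members of 27 of the 68 gene lists, picked with their values known, in percent (x axis), that were higher (red, to the right) or lower (blue, to the left) with shUGDH-1 against shNT, with the number of members tested in brackets. Dashed lines are the shares over all genes tested, 10.5% higher and 10.3% lower. Cholesterol synthesis, at 70%, reaches furthest right and MHC class II presentation, at 56.2%, furthest left.

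Of 20 cholesterol synthesis genes tested, 14 rose (70%) and none fell, with a median of 0.26, and 4 were apart from both groups (2 without replicate 1 or 2 of shUGDH-1 or replicate 2 of shUGDH-2, or with DESeq2). With shUGDH-2, 11 of the 20 were higher and 1 lower. FDFT1, squalene synthase, was at 65.9, 68.5 and 68.3 CPM in the shNT libraries, 97.3, 101 and 93.2 in those of shUGDH-1 and 88.95, 83.2 and 91.96 in those of shUGDH-2. The groups formed 3 ranges, with shUGDH-1 highest and shUGDH-2 just below. FDFT1 and FDPS, which makes its substrate, rose by 0.53 and 0.26, beyond 0.38 and 0.11 with shUGDH-2 (adjusted p apart from both 0.024 and 0.0048). The call of FDFT1 apart from both was lost, by adjusted p, on leaving out replicate 1 or 2 of shUGDH-1 (0.071 and 0.29) or of shUGDH-2 (0.055 and 0.32), and by DESeq2 (0.17). That of FDPS was lost without replicate 1 of shUGDH-1 (0.091) or replicate 3 of shUGDH-2 (0.062). HMGCS1, LSS and MVK rose by 0.47, 0.46 and 0.51 and were not apart. The regulators SREBF1 and SREBF2 rose by 0.61 and 0.53. Of 17 fatty acid synthesis genes tested, shUGDH-1 had 9 higher and 1 lower, while 8 were higher and none lower in the shUGDH-2 libraries. Those higher with shUGDH-1 included FASN, at 0.56 (SE 0.02, adjusted p = 1.2e-32), and the desaturase FADS1, at 0.41 (SE 0.03, adjusted p = 9.5e-16). LXR targets rose in 5 of 12 with each UGDH hairpin. With shUGDH-1, the cholesterol exporters ABCG1 and ABCA1 were at 0.85 and 0.45 and the remodelling enzyme LPCAT3 at 0.54.

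Of 19 genes of lipases and lipid droplets tested, 7 were higher (36.8%) and 1 lower, with a median of -0.03. The lower ones numbered 2 without replicate 1 of shNT or replicate 2 of shUGDH-1. Besides LPL, the higher ones included the endothelial lipase LIPG, at 2.02 (SE 0.18, adjusted p = 7.8e-14), the monoglyceride lipase MGLL, at 0.35 (SE 0.04, adjusted p = 6.5e-09), and PNPLA2, which starts the breakdown of stored fat, at 0.31 (SE 0.03, adjusted p = 1.8e-10). G0S2, an inhibitor of PNPLA2, was the lower one, at -0.77 (SE 0.03, adjusted p = 5.3e-30). CPT1A, the carnitine transferase that admits fatty acids to mitochondria, was at 108, 104 and 105 CPM in the shNT libraries, 74.7, 80.8 and 76.1 in those of shUGDH-1 and 89.4, 97.4 and 88.8 in those of shUGDH-2. The shUGDH-1 libraries were lowest, at -0.45 (SE 0.04, adjusted p = 8.2e-13), and apart from both groups (adjusted p = 3.6e-05). HADH, a step of the oxidation spiral, was lower, at -0.20, against 0.05 with shUGDH-2. The oxidation list as a whole had 4 higher and 5 lower of 26 (0 and 2 with DESeq2). Leaving out any 1 of the 6 libraries gave 2 or 3 lower ones. The higher ones numbered 1 without replicate 1 or 3 of shNT or replicate 2 of shUGDH-1, and 2 without replicate 2 of shNT or replicate 3 of shUGDH-1.

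Ligands of the growth factor families changed in different directions. EREG, the EGF receptor ligand epiregulin, was at 118, 112 and 110.2 CPM in the shNT libraries, 76.8, 77.4 and 71.4 in those of shUGDH-1 and 131, 131 and 126 in those of shUGDH-2. It was lowest with shUGDH-1 and highest with shUGDH-2, with no overlap, at -0.59 (SE 0.04, adjusted p = 4.1e-18) and 0.18 (SE 0.04, adjusted p = 0.00027). EGF itself fell with shUGDH-1 (-0.93 against -0.45 with shUGDH-2, which did not pass), and TGFA fell with both, at -0.14 and -0.13. The feedback phosphatase DUSP6 moved by 0.13 (SE 0.03, adjusted p = 0.0025) against -0.13 with shUGDH-2. Of 38 genes of the EGF and ERBB list, 9 rose (4 with DESeq2) and 4 fell. The higher ones numbered 4 without replicate 1 of shNT, and 5 without replicate 3 of shNT or replicate 2 of shUGDH-1. VEGFA, the main vascular growth factor, was at 191, 186 and 196 CPM in the shNT libraries, 156, 160.2 and 157 in those of shUGDH-1 and 203, 194 and 199 in those of shUGDH-2. Only shUGDH-1 lay below the others, at -0.27 (SE 0.03, adjusted p = 3.2e-10). The platelet-derived factor PDGFB rose about equally with both hairpins (1.51 against 1.47). It was not among the genes named by fold, so it averaged under 5 CPM or its shNT and shUGDH-1 libraries overlapped. PDGFA had -0.71 (SE 0.19, adjusted p = 0.0041), and its adjusted p was 0.11 without replicate 1 of shNT.

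Of 16 genes of the insulin-like growth factor axis tested, 3 rose and 1 fell. PAPPA rose from 3.37 ± 0.302 to 22.7 ± 1.36 CPM (SD, n = 3), and its substrate IGFBP4 by 0.23 (SE 0.02, adjusted p = 1.3e-11). STC1, a stanniocalcin, fell, at -0.31 (SE 0.03, adjusted p = 6.4e-14), against 0.12 with shUGDH-2, and was apart from both. The stanniocalcins bind and inhibit PAPPA. Members of the activin and BMP list went both ways, 6 higher and 3 lower of 40. The activin subunit INHBA rose by 1.70 and its antagonist FST by 0.41, against 1.42 and 0.70 with shUGDH-2. The type I activin receptor ACVR1B fell, at -0.38 (SE 0.09, adjusted p = 0.0012), with -0.03 for shUGDH-2. The inhibitor SMAD7 was lower with both (-0.31 against -0.41). Of 30 Wnt genes tested, 7 rose (4 without replicate 3 of shNT) and 3 fell. Of the nuclear partners of beta-catenin, LEF1 fell, at -1.28 (SE 0.36, adjusted p = 0.0051) and TCF7 rose by 0.43 (SE 0.12, adjusted p = 0.0074), and CTNNB1, beta-catenin itself, rose by 0.13. TCF7 had an adjusted p of 0.13 without replicate 2 of shUGDH-1.

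Semaphorin, plexin and ephrin genes rose in 13 of 41 (31.7%) and fell in 3. PLXNA2, a plexin receptor, was at 19.3, 18.8 and 17.5 CPM in the shNT libraries, 26.9, 26.3 and 27.1 in those of shUGDH-1 and 20.1, 17.9 and 15.999 in those of shUGDH-2. The shUGDH-1 libraries stood above both other groups, at 0.53 (SE 0.08, adjusted p = 6.5e-07). SEMA3D, a secreted semaphorin, rose with both hairpins (1.36 against 0.87). EFNA1, an ephrin, rose with shUGDH-1 (0.56 against 0.31 with shUGDH-2, which did not pass). PLXNB1 rose by 0.43 (SE 0.09, adjusted p = 0.00036) and was 0.33 with shUGDH-2. The count of lower genes was 1 without replicate 2 of shUGDH-1.

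Inflammatory genes gave a mixed picture with shUGDH-1. Of 43 members of the NF-kB list tested, 7 rose and 8 fell, with a median of -0.03, and with shUGDH-2 18 rose and 3 fell, with a median of 0.10. The test apart from both groups called 5 lower (3 without replicate 1 of shUGDH-1) and 2 higher. IL24 was at 30.3, 29.2 and 29.5 CPM in the shNT libraries, 20.1, 20.7 and 19.2 in those of shUGDH-1 and 27.3, 27.1 and 28.8 in those of shUGDH-2. It was lowest with shUGDH-1, at -0.56 (SE 0.07, adjusted p = 1.4e-08), with -0.10 for shUGDH-2. IL6 fell, at -0.20 (SE 0.03, adjusted p = 1.9e-07) and was 0.12 with shUGDH-2, and the subunit NFKB1 was lower, at -0.16 (SE 0.04, adjusted p = 0.0049). IL11, a cytokine of the IL-6 family, was at 31.3, 29.7 and 27.3 CPM in the shNT libraries, 42.5, 43.3 and 42.8 in those of shUGDH-1 and 28.1, 30.5 and 29.6 in those of shUGDH-2, with shUGDH-1 above both others, at 0.54 (SE 0.06, adjusted p = 6.2e-10). The pentraxin PTX3 rose by 0.32 (SE 0.04, adjusted p = 6.9e-09), against 0.00. LCN2 and the complement factor C3 rose by 0.66 and 0.66 and by more with shUGDH-2, 1.94 and 1.39. Interferon-stimulated genes rose in 8 of 41 (19.5%, or 4 genes with DESeq2) and fell in 3 (7.32%), against 10.5% and 10.3% of all genes. IRF9, a subunit of the interferon-activated factor, rose by 0.60 (SE 0.11, adjusted p = 4.6e-05). The higher ones numbered 5 without replicate 1 or 2 of shUGDH-1.

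NRF2 targets and glutathione genes were lower in 16 of 47 tested (34%) and higher in 2 (1 without replicate 1 of shNT). Their median was -0.09, and 6 of the lower ones were apart from both groups. In the shUGDH-2 comparison 10 were lower and 3 higher, with a median of -0.05. SLC7A11, the cystine importer, was at 122, 108 and 110.5 CPM in the shNT libraries, 67.9, 65.9 and 66.2 in those of shUGDH-1 and 82.8, 89.3 and 85.7 in those of shUGDH-2. All groups were separate, with shUGDH-1 lowest. GCLC, the limiting enzyme of glutathione synthesis, fell, at -0.24 (SE 0.07, adjusted p = 0.0053) and the reductase GSR, at -0.21 (SE 0.04, adjusted p = 7.5e-05). TXNRD1, a thioredoxin reductase, and MGST1, a microsomal glutathione transferase, fell, at -0.12 and -0.27, against -0.01 and -0.12 with shUGDH-2. NQO1 and AKR1C3 were lower with both hairpins (-0.21 against -0.25 and -0.67 against -0.76), and AKR1C3 has close paralogs among which reads may be split. The gene of NRF2 itself, NFE2L2, had -0.05 (SE 0.03, adjusted p = 0.22) and did not pass.

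The AHR pathway and tryptophan breakdown list had 6 lower (40%) and 1 higher (6.67%) of 15, against 10.3% and 10.5% of all genes. For shUGDH-2, 4 of the 15 were lower and 2 higher. CYP1B1, a target of the AHR receptor, fell, at -0.63 (SE 0.04, adjusted p = 1.6e-22), more than with shUGDH-2 (-0.43), and CYP1A1 fell alike with both (-0.59 against -0.59). KYNU was at 5.07, 5.61 and 4.77 CPM in the shNT libraries, 2.62, 1.96 and 3.8 in those of shUGDH-1 and 6.06, 8.16 and 6.79 in those of shUGDH-2. The shUGDH-1 libraries lay below all others and shUGDH-2 above shNT, at -0.94 (SE 0.20, adjusted p = 0.00018) and 0.45 (SE 0.16, adjusted p = 0.04).

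Energy metabolism moved by small amounts. Of 28 glycolysis genes tested 5 rose and 4 fell. PFKP, a phosphofructokinase, ENO2, an enolase, and the lactate exporter SLC16A3 rose by 0.20, 0.20 and 0.18. The glucose importer SLC2A1 and PDHA1, of pyruvate dehydrogenase, fell, at -0.17 (SE 0.02, adjusted p = 1.5e-09) and -0.23 (SE 0.04, adjusted p = 2.3e-06). In the tricarboxylic acid cycle list 6 of 32 rose and 1 fell, with the isocitrate dehydrogenases IDH1 and IDH2 at 0.30 (SE 0.05, adjusted p = 4.6e-06) and 0.33 (SE 0.06, adjusted p = 5e-05). The lower one, DLD (-0.14), was lost without replicate 1 of shNT or replicate 3 of shUGDH-1, and 2 or 3 genes of the list were lower without replicate 2 or 3 of shNT or replicate 1 of shUGDH-1. Nuclear genes of the respiratory chain had 4 higher and 4 lower of 72 (0 and 2 with DESeq2), 5.56% each way, below the 10.5% and 10.3% of all genes tested. The higher ones numbered 2 without replicate 1 of shNT or replicate 2 of shUGDH-1 and 1 without replicate 3 of shUGDH-1, and the lower ones 2 without replicate 1 of shUGDH-1. CA12, a carbonic anhydrase of the hypoxia list, rose by 0.64 (SE 0.08, adjusted p = 3e-09), against 0.29.

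Lists of protein production and turnover had more members lower than higher, and most members did not pass. Among 76 cytosolic ribosomal protein genes 24 fell (31.6%) and 2 rose, with a median of -0.04, and with shUGDH-2 34 fell and none rose. RPL34, RPL9 and RPS3A fell, at log2 values of -0.29, -0.27 and -0.20 and were apart from both groups. The higher ones numbered 1 to 4 without replicate 1 or 3 of shNT or replicate 2 or 3 of shUGDH-1. Ribosomal protein genes have many processed pseudogenes, so these counts are uncertain. Ribosome biogenesis genes fell in 14 of 38 (36.8%) and none rose, with 1 higher without replicate 2 of shNT or replicate 3 of shUGDH-1. The lower ones included BYSL, POLR1B and RRS1, at -0.29, -0.26 and -0.25. In the shUGDH-2 comparison 12 of the 38 were lower and 2 higher. Mitochondrial ribosomal protein genes fell in 14 of 78 (17.9%, or 6 genes with DESeq2) and none rose. The lower ones numbered 7 to 9 without any 1 library of shNT, replicate 2 or 3 of shUGDH-1 or replicate 1 of shUGDH-2, and 1 gene was higher without replicate 2 of shNT. Proteasome genes fell in 11 of 39 and 1 rose, and the count was 7 without replicate 3 of shNT. PSMB6, a catalytic subunit, was at 123, 127 and 131 CPM in the shNT libraries, 96.6, 101 and 105 in those of shUGDH-1 and 117, 119.7 and 126 in those of shUGDH-2. It was lowest with shUGDH-1, at -0.34 (SE 0.04, adjusted p = 2.5e-10), and apart from both groups. PSMA3 fell equally with both hairpins (-0.21 against -0.21).

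Of 28 genes tested in the list of cytosolic heat shock proteins, 10 fell and 5 rose. The list also holds members from other compartments, such as the mitochondrial HSPA9. HSPA4L, HSPA9 and HSP90AB1 were lower, at -0.25, -0.12 and -0.10, and the co-chaperone BAG3 rose by 0.20 (SE 0.03, adjusted p = 1.2e-07). The higher ones numbered 3 without replicate 2 of shNT or replicate 2 of shUGDH-1. In the shUGDH-2 comparison 10 of the 28 fell and 2 rose. In the lysosome list, 7 rose (4 with DESeq2) and 9 fell of 48. MANBA, which cleaves mannose from glycoproteins in lysosomes, was at 12.8, 12.1 and 12.7 CPM in the shNT libraries, 8.39, 9.55 and 8.79 in those of shUGDH-1 and 13.1, 12.5 and 11.8 in those of shUGDH-2. The shUGDH-1 libraries lay below all others, at -0.49 (SE 0.11, adjusted p = 0.00063). GUSB, which removes glucuronate from glycosaminoglycans, rose by 0.17 (SE 0.05, adjusted p = 0.004), and IDS, which removes sulfate from iduronate, fell, at -0.14 (SE 0.03, adjusted p = 0.0011).

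Most members of the cell cycle lists did not pass. Mitosis genes fell in 8 of 52 (15.4%) and rose in 4 (7.69%), with a median of -0.01. DNA replication genes fell in 6 of 52 (11.5%) and rose in 3 (5.77%), with a median of -0.03. Among all genes, 10.3% fell and 10.5% rose. The lower DNA replication genes numbered 3 without replicate 2 of shUGDH-1 or with DESeq2. The cyclin CCNA2 and the checkpoint gene MAD2L1 fell with both hairpins (-0.28 against -0.20 and -0.32 against -0.20). MKI67 rose by 0.16 (SE 0.02, adjusted p = 3e-10), and was -0.05 with shUGDH-2. CDKN1A, the p53 target that inhibits cyclin-dependent kinases, rose by 0.25 (SE 0.03, adjusted p = 1.2e-08), and 2 of 28 p53 targets rose and 1 fell. SESN1, the lower one, had adjusted p = 0.058 without replicate 2 of shNT and 0.17 without replicate 1 of shUGDH-1, and 2 targets were lower without replicate 3 of shNT. DNA repair genes showed 4 changes each way of 55 (2 each way with DESeq2), with 2 higher without replicate 1 or 2 of shNT or replicate 2 of shUGDH-1 and 2 lower without replicate 2 of shUGDH-1 or replicate 1 of shUGDH-2.

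Among gene families taken by symbol prefix, the 432 zinc finger (ZNF) genes tested had 9 higher and 25 lower, 2.08% and 5.79%, below the shares of all genes, with a median of -0.05. The lower ones numbered 15 without replicate 1 of shNT or replicate 2 of shUGDH-1, 13 without replicate 3 of shUGDH-1 and 9 with DESeq2. Solute carriers had 23 higher and 19 lower of 194, near the background. SLC16A7, a monocarboxylate transporter, rose with both hairpins (1.44 against 1.04). EMB, which escorts such transporters to the membrane, rose by 0.48 (SE 0.10, adjusted p = 0.00013) against -0.05. Small RNA pathway genes, which process the hairpins, had 2 lower and none higher of 14. The exporter XPO5 moved by -0.11 (SE 0.03, adjusted p = 0.01), and TNRC6A had -0.14 (SE 0.05, adjusted p = 0.048). TNRC6A did not pass without replicate 1 or 2 of shNT, replicate 1 or 2 of shUGDH-1 or any library of shUGDH-2.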

How the data were processed

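The deposited file is a table of whole-number read counts per gene symbol, with no normalization visible in its values. Reads were processed with hg19, STAR, DESeq and DESeq2, per the submitters' processing notes; the sources used here do not give versions, annotation, counting tool or whether strand was used, so reads of overlapping or antisense genes cannot be told apart. Of 23710 entries, 28 had symbols turned into dates; they held 0.232% of the counts, and those that passed the filter stayed in the fit unnamed. Genes with low counts were removed with filterByExpr, which left 12546. TMM factors lay between 0.997 and 1.003. The 9 libraries entered 1 robust quasi-likelihood fit of edgeR 4.0.16 (R 4.3.3), 3 group means, 6 residual degrees of freedom. P-values were adjusted by Benjamini and Hochberg's method over all genes tested, with a threshold of 0.05 and no minimum fold. CPM values of single genes were computed with TMM-scaled library sizes, and the summed levels of marker lists with the total counts of each library. The fit was tested on simulated counts for shUGDH-1 against shNT: of 50 genes changed by each fold it called 64% at 1.2-fold and 100% at 1.5-fold, 2-fold and 3-fold, and 11 of 12267 unchanged genes. The changed genes were drawn from those with a mean of at least 50 counts, and all genes were given the same spread beyond counting. These shares therefore do not cover changed genes with fewer counts, or genes with a wider spread.

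The gene lists (68), the symbol-prefix families (34) and the comparison itself were chosen with earlier results of these data known, and no list was given a test of its own. Named were UGDH; the 20 higher and 20 lower genes of largest fold among those that passed whose higher group averaged 5 CPM or more, whose symbol was intact and whose libraries did not overlap; 15 higher and 15 lower under the same conditions apart from both groups, ranked by the smaller fold; up to 6 members per list with at least 1 CPM; the 10 of smallest p; and HAS2, HAS3, CD44, VIM, CDH1 and MED24. List members could be given whatever their result. For genes named by fold or as apart from both groups, lack of overlap was thus required by the rule and is no separate evidence. Not all named genes are described.

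Guide matches were searched in GENCODE v29 transcripts (GRCh38, while the authors used hg19) for 11621 genes matched by symbol, and no coordinate was converted. Promoters came from RefSeq (GRCh38.p14). Alternatives were RLE size factors, DESeq2 1.42.0, limma-voom (limma 3.58.1), no filter, the 6 libraries alone, a replicate block, each library left out, a minimum fold of 1.2, and seed bases 2 to 7. The authors' deposited tables of fold changes were not used.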

Additional observations from a re-analysis of the deposited data

How the results depend on the processing

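With DESeq2, 876 genes were higher and 753 lower against shNT, and 194 higher and 191 lower apart from both groups, against 1318, 1287, 332 and 295 with edgeR. Counts of members of the lists and families moved more: 98 of them changed by over 1.5 times with DESeq2, 24 to 83 on leaving out a library, and 2 to 19 under the other settings. Against a minimum fold of 1.2, 184 genes passed in place of 2605. Leaving out 1 library at a time gave 1042 to 1342 higher and 943 to 1257 lower genes, 228 to 330 higher and 211 to 315 lower apart from both, and a UGDH log2 fold change of -2.83 to -2.76. RLE size factors, limma-voom and no filter kept each of these counts within 1.5 times its edgeR value. So did the 6 libraries alone for the counts against shNT, since that fit has no test against shUGDH-2. Direction was followed for a selection of genes, mainly those named and the members of the lists, and not for every gene that passed. Within that selection, no called change against shNT reversed under any alternative that fitted these genes again. Reversal was not tested for the remaining genes. For calls apart from both groups in that selection, only a reversal in both comparisons would have been seen, and none was. A change of sign in 1 comparison alone was counted as a lost call. For the replicate block, shNT and shUGDH-1 libraries of the same number had correlations of deviations of 0.0694, 0.0284 and 0.0212, so the numbers were not taken as pairs. Within these 6 libraries each correlated best with its own number, a hint from the data and not the design, but shUGDH-1 and shUGDH-2 libraries of the same number had -0.0412, 0.0209 and -0.0337. With the block 1298 genes were higher and 1284 lower, 318 and 283 apart from both, and UGDH was at -2.80. Limits: shUGDH-1 is 1 hairpin in 1 cell line, 3 libraries a group limit the precision, and 140 higher and 65 lower genes reached 1.5-fold. Whether a change apart from both groups comes from UGDH or from the hairpin was not tested.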
